A study of Mus musculus with 34 samples.

Results

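The effect of losing Rb1 on gene expression in mouse fetal liver was compared between livers that also lacked p107 and livers that kept it, all of them without p130. The comparison is a difference of differences, here called the interaction: the Rb1;p107;p130 TKO minus the p107;p130 DKO, less the Rb1;p130 DKO minus the p130 KO. It was computed for each of 12723 genes from 24 of the 34 arrays of the study. The same number results when the effect of p107 loss with Rb1 present (p107;p130 DKO minus p130 KO) is subtracted from that of p107 loss with Rb1 absent. The 4 groups were 6 arrays of the triple knockout (TKO, without Rb1, p107 and p130), 6 of the p107;p130 DKO (called the p107-lacking DKO below), 9 of the Rb1;p130 DKO (the Rb1-lacking DKO) and 3 of the p130 KO. No group of the comparison kept p130. The labels give embryonic day 14.5, untreated tissue and unfractionated liver for every array, although the design text of the study allows for slightly younger embryos. Alleles, strain, any Cre driver and pooling of livers are not given in the sources used here. Each value is a MAS5 signal, the brightness of a probe set on a one-colour Affymetrix array on a linear scale.

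The 3 pocket proteins are Rb1, p107 (encoded by Rbl1) and p130 (encoded by Rbl2). They bind E2F transcription factors and hold back genes of cell-cycle entry, p107 and p130 mainly with the repressor E2Fs and as part of the DREAM complex. E2F factors act through promoter sites such as TTTCCCGC, and the Rbl1 gene is itself an E2F target. Loss of 1 pocket protein can be covered by another, which is the reason to ask whether 2 losses add up or depend on each other. In the fetal liver, the main blood-forming organ at this age, Rb1 is known for its role in the last divisions and the maturation of red cells.

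Median signals of the 24 arrays lay between 80.6 and 113.0. A signal of 100 was met by 45.6 to 52.5% of an array's probe sets, and r between any 2 of these arrays, over genes, was 0.934 to 0.983. Fetal red cell and liver cell markers were high on every array: the 31 tested erythroid genes summed to between 378508 and 587175, and 16 hepatocyte genes to between 167234 and 250117. The 4 tested lymphoid genes together reached at most 528. The arrays were clustered into 3 array groups, a number set beforehand, by how the signals of 2 probe sets of the same gene differed. These groups match no genotype and no recorded batch. They held 1, 2 and 3 TKO arrays, 3, 2 and 1 of the p107-lacking DKO, 5, 0 and 4 of the Rb1-lacking DKO and 2, 0 and 1 of the p130 KO. Within a genotype they ran mostly in order of replicate number. Arrays 1 to 5 of the Rb1-lacking DKO were in array group 1, for example, and arrays 6 to 9 in array group 3. Xist exceeded the Y-linked genes on 4 of 6 TKO arrays, 1 of 6 of the p107-lacking DKO, 5 of 9 of the Rb1-lacking DKO and 3 of 3 of the p130 KO. Both imbalances enter the interaction, and values with array group or sex in the fit are given beside the genes and lists whose reading they change most. Values within array group 1 rest on 1 TKO array. Those within array group 3 rest on 1 array each of the p107-lacking DKO and the p130 KO.

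Promoters of 3 genes on which the account below turns are shown here, because they differ in the E2F octamers they carry. Phf13 rose with Rb1 loss with and without p107, Zfp367 was called for Rb1 loss without p107, and Rbl1 is the deleted p107 gene. Each runs from 250 bases before the RefSeq start (GRCm38.p6) to 10 bases after it, 5′ to 3′ along the gene, and all 3 genes lie on the minus strand. Capitals mark the octamers TTTCCCGC, TTTCGCGC, TTTGCCGC or TTTGGCGC on either strand.
Phf13, chr4:151996170-151996429: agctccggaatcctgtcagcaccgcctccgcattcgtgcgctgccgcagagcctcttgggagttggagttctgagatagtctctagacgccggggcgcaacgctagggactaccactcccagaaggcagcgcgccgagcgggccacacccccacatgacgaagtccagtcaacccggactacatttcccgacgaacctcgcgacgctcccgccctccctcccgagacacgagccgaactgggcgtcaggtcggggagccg
Zfp367, chr13:64153190-64153449: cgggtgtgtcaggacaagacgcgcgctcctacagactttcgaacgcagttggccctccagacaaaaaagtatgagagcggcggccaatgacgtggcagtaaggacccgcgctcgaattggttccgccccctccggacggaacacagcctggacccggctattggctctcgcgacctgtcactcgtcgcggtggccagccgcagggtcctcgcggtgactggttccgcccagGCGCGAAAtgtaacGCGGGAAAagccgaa
Rbl1, chr2:157204525-157204784: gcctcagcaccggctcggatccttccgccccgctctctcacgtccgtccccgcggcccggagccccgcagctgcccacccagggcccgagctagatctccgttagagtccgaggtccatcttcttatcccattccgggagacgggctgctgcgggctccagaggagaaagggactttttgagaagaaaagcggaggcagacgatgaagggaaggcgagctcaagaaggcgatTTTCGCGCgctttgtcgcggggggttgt
Rbl1 carried TTTCGCGC from base -18 to -11 before its start. Zfp367 carried the reverse complement of TTTCGCGC at bases -19 to -12, and that of TTTCCCGC from -5 to 3. The Phf13 window held none of these letters. An octamer of this kind was present in 2.26% of the 32851 promoter windows of the table, and in 4.66% of the 10283 tested genes that have a window. Counted by gene, it was present in 17 of 33 genes with a window on the S-phase and E2F target list (51.5%). The same held for 3 of 40 such genes called for Rb1 loss in the absence of p107 (7.5%), Alms1, Cenpl and Zfp367. None of the 9 genes with a window that were called for Rb1 loss both with and without p107 held one. A match is not a binding site.

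Rb1 and Rbl1 were low in every group whose label names their deletion. Rb1 had a signal of 766 to 1467 (median 1184) in the TKO, against 5208 to 8035 (median 6332) in the p107-lacking DKO. Its signal was 756 to 1746 (median 1391) in the Rb1-lacking DKO, against 6101, 5810.5 and 8204 in the p130 KO. The groups with and without Rb1 did not overlap in either pair, and the signal was 5.50-fold and 4.82-fold lower on the log2(signal + 32) scale. The Rb1 interaction was -0.19 ± 0.26 (log2 ± SE), with a 95% interval of -0.73 to 0.35. Rbl1 had 56.9 to 139 (median 81.0) in the TKO, against 1306 to 2713 (median 2414) in the Rb1-lacking DKO. It had 43.9 to 118 (median 68.9) in the p107-lacking DKO, against 1256, 1345 and 2004 in the p130 KO. Rbl1 was 17.4-fold and 14.9-fold lower in the groups that lack it, with no overlap. Where the gene was intact, its mean of 2078 ± 577 in the Rb1-lacking DKO (SD, n = 9) stood beside 1535 ± 409 in the p130 KO (SD, n = 3), a log2 difference of 0.41 ± 0.23 that was not called (limma, adjusted p = 0.958). Rbl2, deleted in all 4 groups, had 127 to 265 (median 184) in the TKO, 105 to 249 (median 203) in the p107-lacking DKO, 151 to 264 (median 200.3) in the Rb1-lacking DKO and 221, 236 and 129.6 in the p130 KO. These ranges overlapped throughout, and without a p130-positive group among the 24 arrays they do not check the p130 label.

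No gene was called for the interaction (limma with Benjamini-Hochberg adjustment, 0% of 12723 genes at an adjusted p under 0.05, lowest adjusted p = 0.9995). Without adjustment 209 genes had p under 0.05, which is 1.64% of those tested, 82 of them higher (0.645%) and 127 lower (0.998%). The median interaction was -0.01 on the log2 scale. The labels do not say that arrays come from separate animals, so these p-values measure only the spread between the samples as given. No gene was called with array group as a block, with a sex term, or with both. Within the 11 arrays of array group 1 none was called, and within the 9 of array group 3 a single gene was, Redrum, described with the other settings below.

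The median SE of the interaction was 0.26 (quartiles 0.20 and 0.35). For 10008 genes (78.7%) the whole 95% interval lay within a 2-fold change in either direction, and so it did for 7899 (92.4%) of the 8552 genes whose log2 signal averaged 8 or more. Only 50.4% of those 8552 genes had an interval within 1.5-fold. The 3 p130 KO arrays carried 42.9% of the sampling variance of the estimate, against 14.3% for the 9 arrays of the Rb1-lacking DKO.

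The 2 effects of Rb1 loss that make up the interaction rest on different arrays. With p107 absent, 48 genes were called (0.377% of those tested), 38 higher (0.299%) and 10 lower (0.0786%) in the TKO than in the p107-lacking DKO. With p107 present, 15 were called (0.118%), 9 higher (0.0707%) and 6 lower (0.0472%) in the Rb1-lacking DKO than in the p130 KO. All 48 genes of the first set had the same sign in the second comparison, where 62.0% of all tested genes share their sign, and 41 of them had an unadjusted p under 0.05 there, as did 5.3% of all genes. Their median size was 0.73 in the comparison that chose them and 0.62 in the other. For the 15 the sizes were 0.89 and 0.65, and all had the same sign and an unadjusted p under 0.05 in the other comparison, beside 6.02% of all genes. The genes were chosen by size in 1 comparison, and 35 of the 48 and 12 of the 15 were larger there. Over the 8552 well-measured genes the 2 effects of Rb1 loss correlated at r = 0.476, a description across genes that are not independent replicates. For 40 of the 48 genes the interval of the interaction lay within 2-fold.

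**Figure D1:**
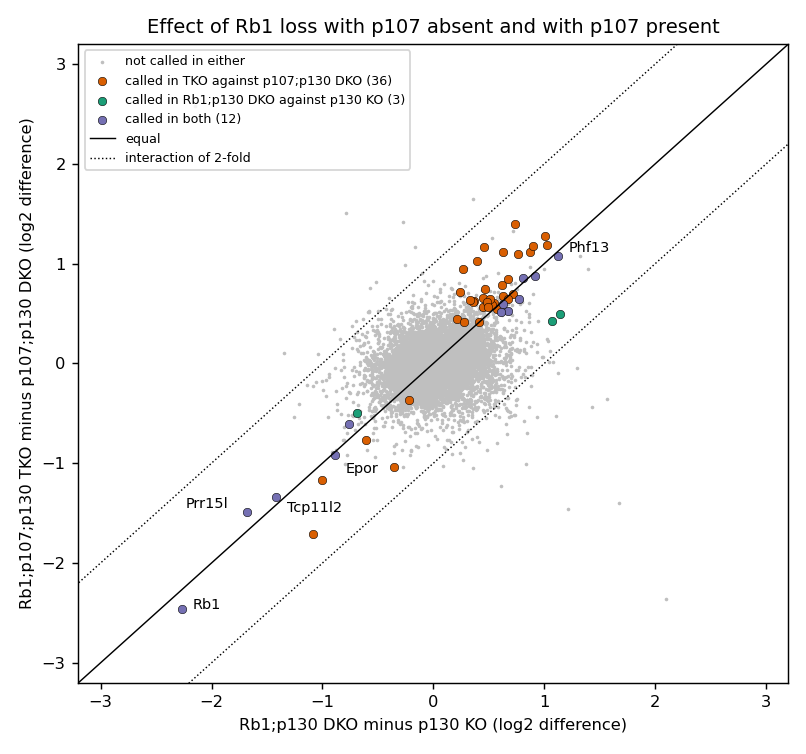
Each point is 1 of 12723 genes, with the log2 difference between the Rb1;p130 DKO and the p130 KO on the x axis and that between the TKO and the p107;p130 DKO on the y axis. Coloured points were called in 1 or both comparisons (36, 3 and 12 genes). The called genes scatter around the solid line of equal effects, with interactions from -0.68 to 0.71. Effects were larger in the comparison that called the gene for 35 of 48 genes (y axis) and 12 of 15 (x axis). Genes between the dotted lines differ by less than 2-fold.

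The 12 genes called in both comparisons, 7 higher and 5 lower without Rb1, had interactions between -0.19 and 0.20. They were Rb1 itself, the higher genes Phf13, Fhl1, Pcgf5, Sap30, Klf10, Phlpp2 and Siah1a, and the lower genes Prr15l, Tcp11l2, Epor and Mllt3. A gene entered this set only if called in both comparisons, and its interaction is the difference between those same effects. Their narrow range therefore follows in part from the choice, as do the small interactions of single genes of the set given below. By itself the range does not show that p107 leaves the effect of Rb1 loss unchanged. For 9 of the 12 neither pair of groups overlapped. Over all genes, groups did not overlap for 0.802% without p107 and 0.982% with it, each a share for 1 comparison. A share for both at once was not computed, and lack of overlap follows in part from the choice of called genes. The largest rise of the 7 in both comparisons was that of Phf13, which encodes a chromatin protein that reads methylated histone H3. Phf13 had 728 to 1004 (median 813) in the TKO, against 331 to 445 (median 370.2) in the p107-lacking DKO. It had 674 to 978 (median 874) in the Rb1-lacking DKO, against 319, 392 and 392 in the p130 KO. The lowest array without Rb1 stood well above the highest array with it in both pairs, and the ranges of the groups without Rb1 overlapped. Its log2 rise was 1.08 ± 0.11 without p107 (adjusted p = 4.02e-07) and 1.12 ± 0.13 with it (adjusted p = 4.82e-06), and the interaction was -0.04 ± 0.17 with an interval of -0.40 to 0.31.

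Of the other higher genes, Sap30, Pcgf5 and Klf10 are known as regulators of chromatin or transcription. Sap30, a subunit of the Sin3 histone deacetylase complex, had 2107 to 2748 (median 2517) in the TKO, against 1360.3 to 1914 (median 1605) in the p107-lacking DKO. Its signal was 1944 to 3033 (median 2409.9) in the Rb1-lacking DKO, against 1598, 1195 and 1852 in the p130 KO. Neither pair overlapped, and the interaction was -0.03 ± 0.17. Pcgf5, a Polycomb subunit of variant PRC1, rose by 0.85 and 0.81, and Klf10, a Krüppel-like factor induced by TGF-beta, by 0.65 and 0.77. Fhl1, a LIM-domain protein, rose by 0.87 and 0.91. Siah1a, a ubiquitin ligase, rose by 0.51 and 0.61. Phlpp2, a phosphatase that acts on Akt, rose by 0.52 and 0.67 at its brightest probe set, while the mean over its probe sets, which include a dim one, gave -0.06 for the first of these.

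Among the lower genes, Epor encodes the erythropoietin receptor, which red cell precursors need for survival. Epor had 2174 to 3999.6 (median 2484) in the TKO, against 3855 to 5829 (median 5285) in the p107-lacking DKO, the highest TKO array passing the lowest DKO array. It had 2446 to 4586 (median 3489) in the Rb1-lacking DKO, against 5323, 8058 and 6446 in the p130 KO, with no overlap. The log2 difference was -0.92 without p107 and -0.89 with it, and the interaction was -0.03 ± 0.24. Mllt3, a reader of acylated histones with a known part in blood stem cells, fell by 0.61 and 0.76, and its interaction was 0.15 ± 0.20. Tcp11l2 had 737 to 1507 (median 1076) in the TKO, against 2031 to 4205 (median 2753) in the p107-lacking DKO. Its values were 1119 to 1884 (median 1300.4) in the Rb1-lacking DKO, against 3092, 3309 and 4916 in the p130 KO, again without overlap in either pair. Prr15l, which was lowest in the TKO and highest in the p130 KO, had 13.9 to 91.6 (median 51.1) in the TKO, 127 to 227 (median 188) in the p107-lacking DKO, 105 ± 30.6 (mean and SD, n = 9) in the Rb1-lacking DKO and 345, 455 and 392 in the p130 KO. Its log2 differences with Rb1 loss were -1.48 and -1.68, while those with p107 loss, -0.78 and -0.98, were not called (adjusted p = 0.259 and 0.885).

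**Figure D2:**
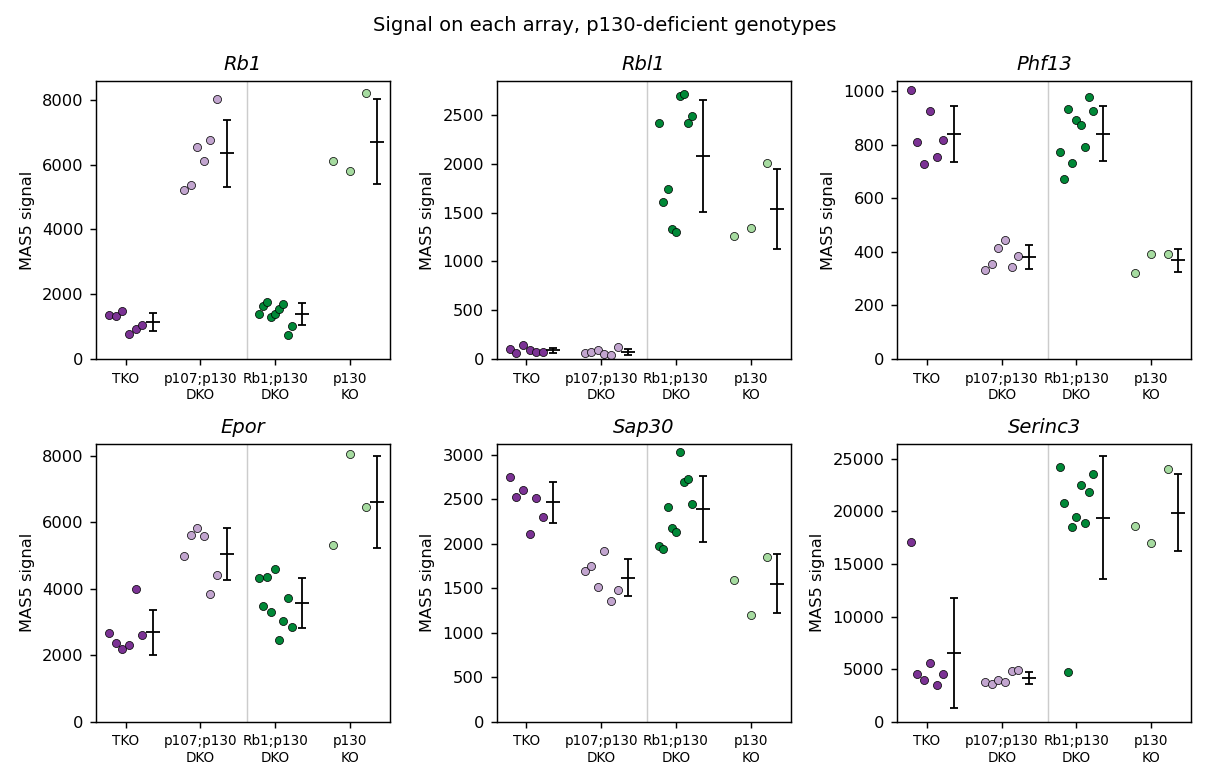
Each point is the MAS5 signal of 1 array, with the mean and SD beside each group, for 6 genes called in both comparisons of Rb1 loss or of p107 loss. TKO and p107;p130 DKO stand left of the grey line, Rb1;p130 DKO and p130 KO right of it. Phf13 and Sap30 are higher, and Epor is lower, in the Rb1-deleted group on both sides of the line, and 1 TKO array and 1 Rb1;p130 DKO array of Serinc3 lie at the other group's level.

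When 1 array was left out at a time, Rb1, Phf13 and Prr15l kept both calls and the other 9 lost at least 1. Without p130 KO arrays 1, 2 or 3 the calls lost numbered 6, 7 and 7. Leaving out p107-lacking DKO array 2 ended 4 calls, and TKO arrays 2 and 4 ended 3 each. Arrays 1, 3, 4 and 5 of the p107-lacking DKO, TKO array 1 and arrays 7 and 8 of the Rb1-lacking DKO ended 1 or 2 each. In none of these fits did a call change its direction.

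Of the 36 genes called without p107 but not with it, 4 are named here after their values were seen. Zfp367, a zinc finger gene whose promoter is shown above, had 3147 to 5811 (median 4454) in the TKO, against 1643 to 2344 (median 1915) in the p107-lacking DKO. It had 2054 to 4711 (median 4335) in the Rb1-lacking DKO, against 2429, 1870.2 and 1802 in the p130 KO. The rise was 1.17 ± 0.18 without p107 (adjusted p = 2.54e-04), and the second difference, 0.90 ± 0.20, was not called (adjusted p = 0.0691). Its interaction was 0.28 ± 0.27, so the 2 effects were not shown to differ. Cdkn1a, the p21 inhibitor of cyclin-dependent kinases, had 322 to 973 (median 588) in the TKO, against 129.5 to 276 (median 229) in the p107-lacking DKO. Its signal was 361 to 660.2 (median 462) in the Rb1-lacking DKO, against 174, 284 and 215 in the p130 KO. No array without Rb1 fell within the range of its comparison group, and the interaction was 0.27 ± 0.29. E2f8, a repressor E2F, and Cdkn2c, the p18 inhibitor, followed with interactions of 0.26 ± 0.23 and 0.05 ± 0.20.

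Loss of p107 gave fewer calls. In the TKO against the Rb1-lacking DKO 3 genes were called lower (0.0236% of those tested), Rbl1, Serinc3 and Ccne1. In the p107-lacking DKO against the p130 KO 3 genes were called lower (0.0236%), Rbl1, Serinc3 and Rdh5. Serinc3 lies on chromosome 2, as Rbl1 does, and encodes a membrane protein of the serine incorporator family. Serinc3 had 3537 to 17091 (median 4545) in the TKO, against 4735 to 24249 (median 20772) in the Rb1-lacking DKO. It had 3619 to 4931 (median 3856) in the p107-lacking DKO, against 18666, 16962 and 24040.1 in the p130 KO. TKO array 1 stood at the level of the groups with p107, and array 3 of the Rb1-lacking DKO at the level of those without. On these 2 arrays Rbl1 itself was at its group's level, 98.5 on TKO array 1 and 1739 on array 3 of the Rb1-lacking DKO. When an array of the TKO or the Rb1-lacking DKO was left out, Rbl1 and Serinc3 kept their calls between these groups in all 15 fits. The total was 2 without any of 7 arrays, so the Ccne1 call was lost there, and a sex term also left 2 calls. With the replicate block 1 gene was called lower and 1 higher. The Serinc3 interaction was 0.55 ± 0.46, and its call in the second comparison was lost without p130 KO array 3. Ccne1, cyclin E1, an E2F target that drives entry into S phase, was 2426 to 2992 (median 2666) in the TKO, against 3329 to 4149.9 (median 3605) in the Rb1-lacking DKO. The p107-lacking DKO had 2298 to 3029.9 (median 2640.0), against 3206, 3198 and 4108 in the p130 KO. The TKO and the Rb1-lacking DKO did not overlap, nor did the other pair, as was the case for 0.0472% and 2.12% of all genes. Its differences were -0.46 and -0.41 on the log2 scale, the second not called, and the interaction was -0.05 ± 0.15. Rdh5, a retinol dehydrogenase, had 116 to 226 (median 155) in the TKO, against 148 to 241 (median 179.9) in the Rb1-lacking DKO. It had 103 to 174 (median 149) in the p107-lacking DKO, against 326 ± 90.8 in the p130 KO (SD, n = 3), whose lowest array was above all others. Its interaction was 0.80 ± 0.23 (unadjusted p = 0.00157), and its mean log2 signal was under 8.

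The 12 highest and 12 lowest genes of the interaction, by moderated t among those 8552 genes without Xist and the Y-linked genes, are given as a description, since none was called. The 12 highest were Mbl1, Sdc2, Nemp1, Fam3a, Aptx, Rbm45, Polr3gl, Cntrob, Eif2s3x, Pdzk1ip1, Akr1c19 and Ddit3. The 12 lowest were Lsm1, Ccnd2, Gtf2a2, Rusc1, Socs2, 3110040N11Rik, Crtc3, Acyp2, Ppard, Wdr45, Dpcd and Eif5a2. In 6 of the 12 highest the p130 KO had the highest mean of the 4 groups, and in 7 of the 12 lowest it had the lowest. The p107-lacking DKO had the lowest mean in 9 of the 12 highest and the highest mean in 6 of the 12 lowest. Genes were chosen by the contrast that these means form, so such counts follow in part from the choice. Only Pdzk1ip1 and Ddit3 were called in any of the 4 comparisons that make up the interaction. Both were called for Rb1 loss without p107, as were 0.377% of all genes, and that difference is part of the value that chose them. None of the 19 of these genes with a promoter window held an E2F octamer in it. The share over all tested genes with a window was 4.66%, so 19 genes are too few to show a difference.

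Mbl1, the liver's mannose-binding lectin A, had 345 to 569 (median 406) in the TKO, against 264 to 439 (median 349) in the p107-lacking DKO. It had 327 to 495 (median 437) in the Rb1-lacking DKO, against 461, 891 and 626 in the p130 KO. The ranges overlapped within each of these pairs, while the p130 KO lay above the whole p107-lacking DKO, and the interaction was 0.87 ± 0.29 (unadjusted p = 0.00533), with an interval of 0.28 to 1.46. Sdc2, the heparan sulphate proteoglycan syndecan-2, had 332 to 408 (median 369) in the TKO, against 241 to 327 (median 288) in the p107-lacking DKO, without overlap. Its signal was 183 to 374 (median 322) in the Rb1-lacking DKO, against 388, 415 and 288 in the p130 KO, where the ranges overlapped, and the interaction was 0.62 ± 0.23. A dimmer probe set of Sdc2 gave -0.27 ± 0.32 and another gave 0.80 ± 0.34. Nemp1, a protein of the inner nuclear membrane, was likewise separated in the TKO, at 539 to 647 (median 602), from the p107-lacking DKO, at 363 to 479 (median 457). Its values in the Rb1-lacking DKO, 439.9 to 556 (median 534), fell inside the span of 411, 637 and 554 in the p130 KO.

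Pdzk1ip1, a small membrane protein also called MAP17, had 1359 to 2126 (median 1555) in the TKO, against 634 to 1031 (median 699.9) in the p107-lacking DKO. This rise of 1.02 ± 0.17 was called (adjusted p = 0.00112). With p107 present it had 960.2 to 1935 (median 1356) in the Rb1-lacking DKO, against 861, 1386 and 971 in the p130 KO. This difference of 0.39 ± 0.20 was not called, and the interaction was 0.63 ± 0.26. The other probe set of Pdzk1ip1, nearly as bright, had an interaction of 0.39 ± 0.36. Its mean was 1601 in the TKO against 740 in the p107-lacking DKO, and 1141 in the Rb1-lacking DKO against 701 in the p130 KO. Ddit3, the stress-induced transcription factor CHOP, rose by 0.72 ± 0.13 without p107 (adjusted p = 0.00427), while its difference with p107, 0.24 ± 0.15, was not called. Its signal on p130 KO array 2, 939.8, lay above all TKO arrays, and within array group 3 the interaction was 0.07. The other probe set of Ddit3 had an interaction of -0.01 ± 0.32. Its mean was 363 in the TKO against 292 in the p107-lacking DKO, and 349 in the Rb1-lacking DKO against 297 in the p130 KO. Akr1c19, an aldo-keto reductase, had 404 to 1612 (median 716) in the TKO, against 308 to 571 (median 373) in the p107-lacking DKO. It had 165 to 653 (median 396) in the Rb1-lacking DKO, against 325, 902 and 283 in the p130 KO, where array 2 alone was high. The interaction of 1.24 ± 0.52 was 1.80 with a sex term. Rbm45, an RNA-binding protein, had the largest estimate of the 24, 2.29 ± 0.93, with signals spread from 112 to 2202 within the Rb1-lacking DKO, and the value within array group 3 was 0.20. Eif2s3x, the X-linked gene of the translation factor eIF2 gamma, had an interaction of 0.49 ± 0.20 that was 0.18 with a sex term.

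At the low end, Lsm1, a component of the cytoplasmic mRNA decay machinery, had 506 to 760.3 (median 583) in the TKO, against 579.9 to 861 (median 778) in the p107-lacking DKO. It had 519 to 795 (median 715) in the Rb1-lacking DKO, against 717, 514 and 382 in the p130 KO. All ranges overlapped, and the interaction was -0.61 ± 0.21 (unadjusted p = 0.00555), or -0.28 within array group 1. Ccnd2, cyclin D2, a partner of the kinases that phosphorylate the pocket proteins, had 846 to 1281 (median 1037) in the TKO, against 1215 to 1587 (median 1350.0) in the p107-lacking DKO. Its signal was 1237 to 2135 (median 1582) in the Rb1-lacking DKO, against 1342, 1409 and 1291 in the p130 KO. The lowest values were in the TKO and the highest in the Rb1-lacking DKO, where 4 of 9 arrays lay between 1968 and 2135 and the other 5 at or below 1582. The interaction was -0.64 ± 0.24, with an interval of -1.13 to -0.16, and -0.23 within array group 1. All 6 tested probe sets of Ccnd2 were below 0, from -0.94 to -0.29. Socs2, a feedback inhibitor of JAK-STAT signalling, had an interaction of -0.75 ± 0.30 at its brightest probe set and -0.02 ± 0.21 at the next brightest. Over all named genes, 48 of 60 other probe sets with a mean signal of at least 200 had the sign of the brightest one.

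**Figure D3:**
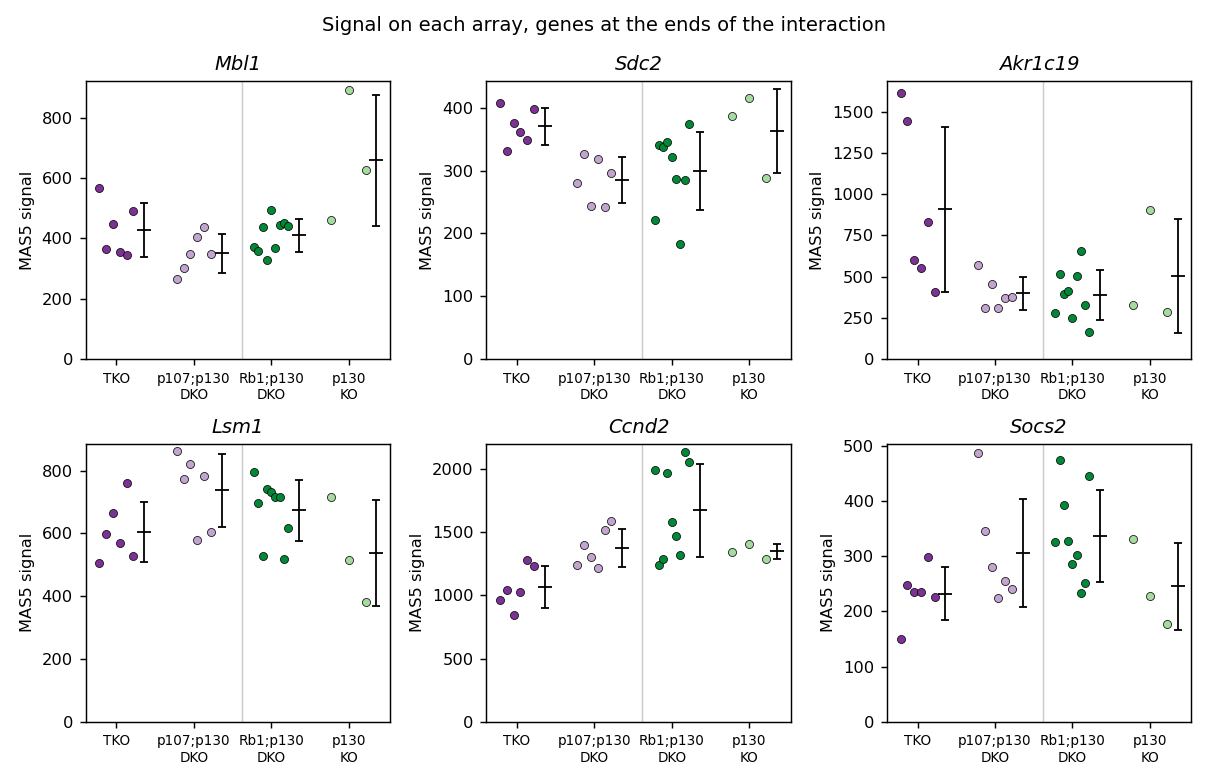
Each point is the MAS5 signal of 1 array, with the mean and SD beside each group, for 3 of the highest (top row) and 3 of the lowest genes (bottom row) of the interaction. The groups overlap in most pairs, and the p130 KO at the right of each panel rests on 3 arrays.

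The same interaction could be formed where p130 is present, from 5 Rb1;p107 DKO arrays, 1 p107 KO, 2 Rb1 KO and 2 wild type. These 10 arrays are separate from the 24. No gene was called there (0% of 12723), and 448 had an unadjusted p under 0.05 (3.52%). The median SE was 0.44, and the single p107 KO array was taken to vary like the other groups. Of the 12 highest genes 5 had a positive interaction with p130 present, and of the 12 lowest 5 had a negative one, where 45.4% of all genes were positive. The test of the difference between the interactions called no gene (0%), with 286 at an unadjusted p under 0.05 (2.25%). Among the genes that kept their sign, Aptx was 0.58 with p130 absent and 0.53 with it present, and Rusc1 -0.77 and -0.84. Akr1c19 had 1.24 and -1.13 ± 0.87. With p130 absent, the 2 next brightest probe sets of Rusc1 gave 0.08 ± 0.28 and 0.04 ± 0.28, and 2 dimmer ones -0.91 ± 0.42 and -0.03 ± 0.34.

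**Figure D4:**
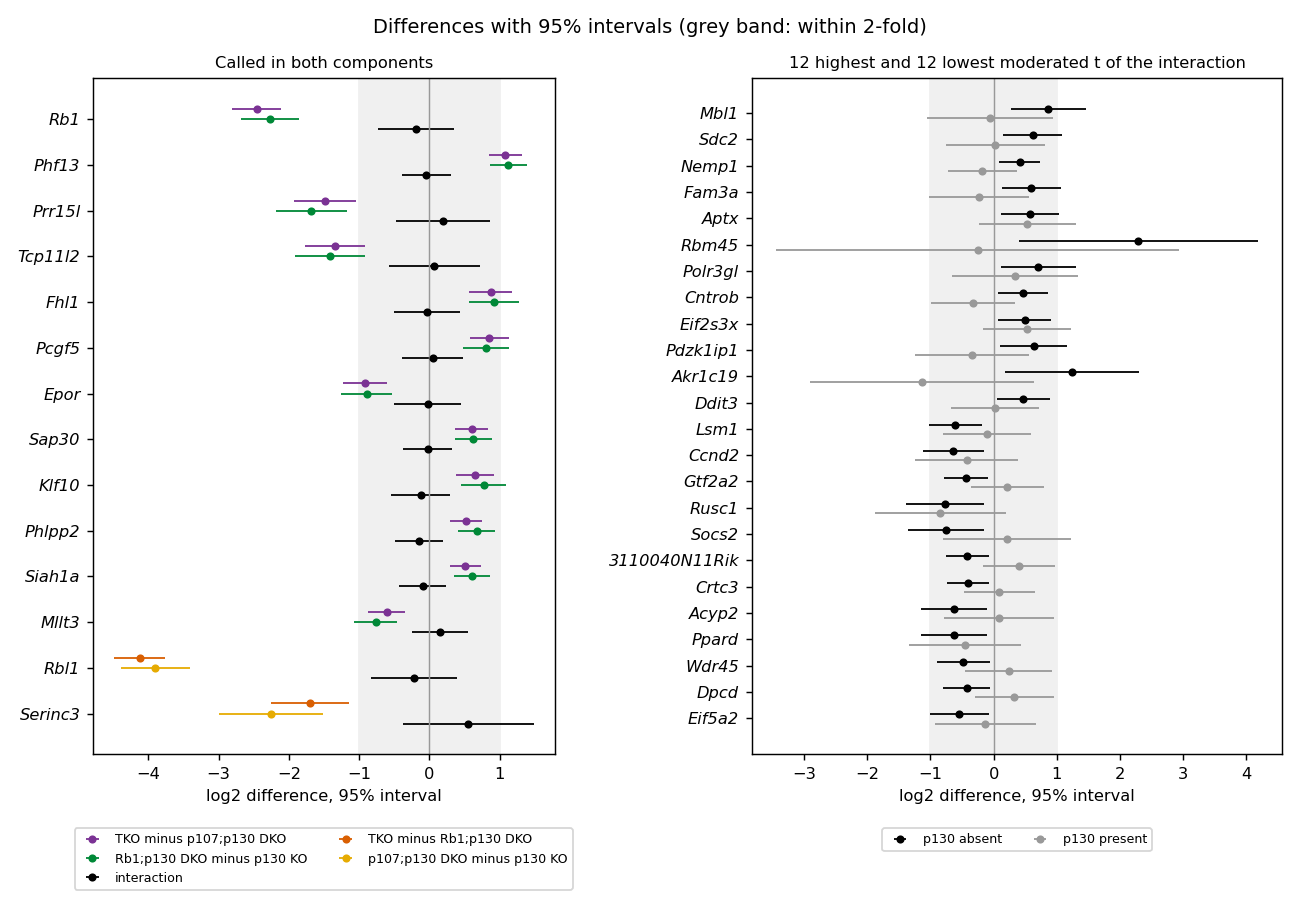
Points are log2 differences with 95% intervals. On the left are the genes called in both comparisons of Rb1 loss or of p107 loss, with their interaction in black inside or across the grey band of 2-fold. On the right are the 24 genes at the ends of the interaction, whose black intervals with p130 absent lie to 1 side of 0 by the choice of genes, while the grey ones with p130 present all cross 0.

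In whole tissue, fewer cells of a type and less RNA per cell cannot be told apart. Lists of genes were therefore read by their counts, beside the 48.6% of all tested genes that had a positive interaction and their median of -0.01. Of the 39 tested S-phase and E2F target genes, 24 were higher, the median was 0.03 and 38 had an interval within 2-fold. They ran from Pola1, the DNA polymerase alpha subunit, at -0.32 to Uhrf1, which maintains DNA methylation, at 0.32. None of them, and none of the 29 G2/M genes, had an unadjusted p under 0.05. Of the G2/M genes 23 were higher, with a median of 0.07, and 18 were higher with array group as a block, 19 with a sex term, and 15 and 16 within array groups 1 and 3. Kif20a and Nusap1, which act in mitosis, had the highest values among those named, at 0.34 ± 0.22 and 0.34 ± 0.22. Without p130 KO array 3 the medians of these lists were -0.06 and -0.03, and without array 2 they were 0.19 and 0.17. Of the 22 E2F, DP, MuvB and G1 regulators 14 were higher, with a median of 0.07, and Ccnd2 was the single one with an unadjusted p under 0.05.

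Of the 31 erythroid maturation genes 25 were higher, with a median of 0.10, and the interval lay within 2-fold for all 31. With a sex term 16 of them were higher and the median was 0.00. Gfi1b and Tal1, transcription factors of the red cell lineage, had interactions of 0.26 ± 0.21 and 0.22 ± 0.19. Without p130 KO array 3 the median was -0.03. The summed signal of these genes ran from 381357 to 575500.3 in the TKO, 378508 to 532202 in the p107-lacking DKO, 380789 to 556418 in the Rb1-lacking DKO and 450722 to 587175 in the p130 KO, so all groups overlapped. Among the 3 embryonic globins Hba-x had 17099 to 26051 (median 22225) in the TKO, against 11820.0 to 23809 (median 17086) in the p107-lacking DKO. It had 8648 to 26479.8 (median 9577) in the Rb1-lacking DKO, against 18842, 9349 and 27270.3 in the p130 KO, and the ranges overlapped in both pairs. Its interaction was 0.86 ± 0.40 and that of Hbb-bh1 was 0.67 ± 0.31 (unadjusted p = 0.0371 and 0.0371), while Hbb-y, the most abundant of them, had 0.09 ± 0.19.

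The 16 hepatocyte and hepatoblast genes were all higher in the interaction, with a median of 0.21 and none at an unadjusted p under 0.05. With a sex term 13 were higher and the median was 0.10. Without p130 KO array 2 the median was 0.08, and without array 3 it was 0.33. Fgg, a fibrinogen chain, had 0.41 ± 0.27 and Rbp4, the plasma carrier of retinol, 0.35 ± 0.23. Cps1, an enzyme of the urea cycle, was the exception in size, at 1.69 ± 0.84. Its signal was 64.5 to 462 (median 383) in the TKO, against 30.9 to 602 (median 62.3) in the p107-lacking DKO, and 40.9 to 404 (median 109) in the Rb1-lacking DKO, against 100.1, 84.7 and 567 in the p130 KO. Every group held both high and low arrays for it. The list's summed signal was 197202 to 238931 in the TKO and 167234 to 218473 in the p107-lacking DKO. It was 170353 to 242326 in the Rb1-lacking DKO and 183633 to 250117 in the p130 KO. The 16 signs come from the same arrays and are not independent, and the part of liver cell content in the interaction was not tested.

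The remaining lists had medians between -0.17 and 0.20 and held 1 gene with an unadjusted p under 0.05, Ankrd37 of the hypoxia-response list at -0.65 ± 0.30. Ankrd37 was also called for Rb1 loss with p107 present (1.14, adjusted p = 0.0227), where it had 113 to 291 (median 185) in the Rb1-lacking DKO, against 137, 68.1 and 21.5 in the p130 KO, so the groups overlapped. Macrophage genes were higher in 14 of 16 and megakaryocyte genes in 9 of 10, with medians of 0.14 and 0.20. Neither count held throughout: within array groups 1 and 3, macrophage genes were higher in 9 and 8 of 16, and megakaryocyte genes in 10 and 0 of 10, with medians of 0.68 and -0.63. With array group as a block 6 of 10 megakaryocyte genes were higher, with a median of 0.11, and without p130 KO array 2 the macrophage median was -0.05. Stem and progenitor genes were higher in 4 of 12 and stellate and mesenchymal genes in 3 of 12, with medians of -0.17 and -0.14. The stellate median was -0.50 without p130 KO array 2, 0.10 without array 1, and 0.07 within array group 1, where 7 of 12 were higher. The interferon-response median of -0.13 was -0.38 with a sex term and 0.20 without p130 KO array 3, and that of neutrophil genes, 0.07, was -0.72 within array group 1. Csf1r, the receptor for macrophage colony-stimulating factor, had 0.55 ± 0.30, and Pdgfra, the PDGF receptor alpha of mesenchymal cells, -0.59 ± 0.40. Mitochondrial respiration genes had the narrowest range of the 18 lists, with all 15 intervals within 2-fold and values from -0.07 to 0.17.

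**Figure D5:**
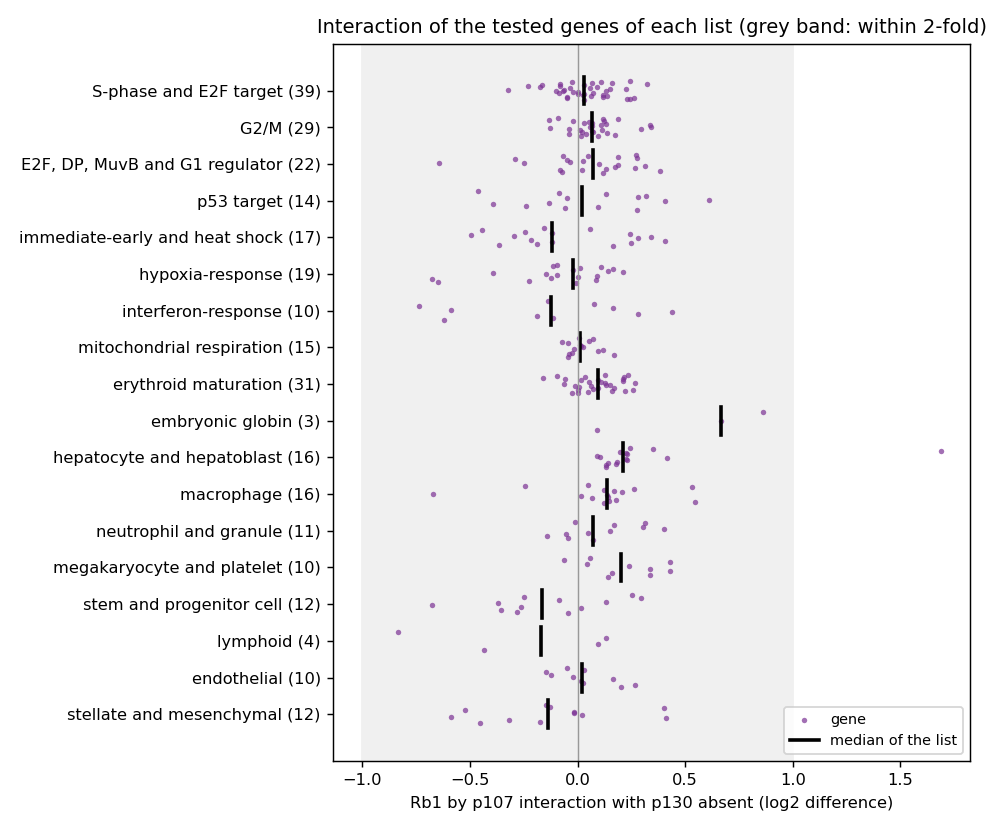
Each point is the interaction of 1 tested gene (log2 difference), in rows by gene list with the number tested, and black bars are the list medians. Most points lie within 0.5 of 0 and nearly all lie in the grey 2-fold band, with Cps1 the point beyond it.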

How the data were processed

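RNA of unfractionated fetal liver was hybridised to one-colour Affymetrix arrays, with 1 array per sample. The deposited values are MAS5 signal intensities on a linear scale, made by the authors with GCOS 1.4, per the submitters' processing notes. Each array was rescaled to a 2% trimmed mean of 500, and log2(signal + 32) was used. The array annotation named 1 gene for 34945 of 45037 probe sets, several for 932 and none for 9160. The brightest probe set stood for each gene, and 12723 genes reached a signal of 100 on at least 2 arrays. All 34 arrays were fitted with 1 mean per genotype (limma 3.58.1, R 4.3.3, eBayes with a trend), and p-values were adjusted by Benjamini-Hochberg over all genes, with calls at 0.05. The number of arrays limits the precision. Tables and plots used pandas 2.3.3, numpy 2.4.6 and matplotlib 3.10.9, and the fit was tested on simulated data.

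The members, gene lists and tests were chosen with earlier results of these data known. Genes named are the 3 pocket genes, the 12 highest and 12 lowest by moderated t of the interaction at a mean log2 signal of at least 8 (without Xist and Y-linked genes), those called in both comparisons of Rb1 or p107 loss, and up to 3 per list. Array groups were clustered from the signals. Same-numbered arrays of different genotypes correlated at r = -0.459 to 0.579 (27 pairs, median 0.095), so the replicate number was not taken to pair them. Alternatives covered the pseudocount, filter, scaling, probe sets, arrays fitted, blocks, sex term, weights and each array left out.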

Additional observations from a re-analysis of the deposited data

Results flagged for a closer look

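Of 276 combinations of a named gene and a group of 6 or 9 arrays, 25 held 1 array that stood far from the others of its group, by the gap to its nearest neighbour as a share of the range on the log2 scale (Dixon's test). Chance alone flags about 1 combination in 20. Each value below is the signal of that array, followed by that of the nearest array of the same group. The Rb1-lacking DKO array 9 had Polr3gl at 106 against 318, Acyp2 at 638 against 925, Nusap1 at 5102 against 7081, Cdkn2d at 5046 against 8495, Klf4 at 344 against 187, Pdk1 at 938 against 1934, Ndufa4 at 4594 against 7043 and Acta2 at 6447 against 1430.0. Array 4 of the p107-lacking DKO had Aptx at 189 against 262, Fhl1 at 931 against 676, Uhrf1 at 10481 against 8036, Cps1 at 602 against 71.3 and Gp9 at 1929 against 1169. The TKO array 1 had Serinc3 at 17091 against 5548. Array 2 of the TKO had Fgg at 8469 against 6982. The TKO array 4 had Hbb-y at 53941 against 40875. Array 5 of the TKO had Epor at 3999.6 against 2673 and Cps1 at 64.5 against 265. The Rb1-lacking DKO array 3 had Serinc3 at 4735 against 18563 and Cdc25c at 1024 against 1118. Array 6 of the Rb1-lacking DKO had Klf10 at 1144 against 1441. The Rb1-lacking DKO array 7 had Mllt3 at 3360.1 against 2418. Array 1 of the p107-lacking DKO had Nemp1 at 363 against 445, Prr15l at 127 against 185 and Siah1a at 1567 against 1259. No explanation was tested for these values. Serinc3 on TKO array 1 and on array 3 of the Rb1-lacking DKO lay at the level of the groups with the other p107 state.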

How the results depend on the processing

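The interaction called no gene under 15 of the 16 other settings, including the replicate block, and 1 gene within array group 3. That gene, Redrum, had a log2 interaction of -5.65 ± 0.63 there (limma, adjusted p = 0.0417), against -1.87 ± 0.90 over all arrays, and its p130 KO arrays read 3323, 1573 and 3.62. With arrays left out in turn 0 to 1 gene was called: without p130 KO array 2 it was Gpihbp1, at -1.83 ± 0.29 (adjusted p = 0.00677), against -1.21 ± 0.35 with it. Both genes were named after their values were seen. Genes at an unadjusted p under 0.05 numbered 88 (signal of 200 on at least 6 arrays) to 473 (replicate block), beside 209, and 194 to 403 with an array left out. With p130 present, a pseudocount of 100 gave 1 call, Cpa1, and 6 genes were called, all lower, without Rb1-lacking DKO array 9 or without arrays 8 and 9, which are in no group of that comparison and enter through the shared spread. For Rb1 loss without p107 the 48 calls became 80 with the replicate block, 110 with array group as a block, 85 with array group and sex, 31 with a sex term and 144 with array weights. Within array groups 1 and 3, where 1 arm has 1 array, they were 3 and 0, and within array group 2, with 2 arrays each, 38. Leaving out an array of the 2 groups compared gave 28 to 52, with 28 without array 2 and 31 without array 3 of the p107-lacking DKO, and 30 without TKO array 2. Among arrays of other groups, 71 were called without array 9 of the Rb1-lacking DKO, and ranges given for the other comparisons also cover only their own groups. For Rb1 loss with p107 the 15 calls became 26 with quantile normalization, 50 with array group as a block, 40 with array group and sex and 29 with array weights. Within array groups 1 and 3 they were 31 and 1. Leaving out an array gave 7 to 17, with 7 without p130 KO array 1 or 2 and 9 without array 3. For p107 loss without Rb1 the 3 calls became 17 with array group as a block, with or without sex, 8 with array weights and 1 within array group 1. Leaving out an array gave 2 to 8, with 8 without array 9 and 5 without array 7 of the Rb1-lacking DKO. For p107 loss with Rb1 the 3 calls became 1 within array group 1, with a sex term and with array group and sex, and 1 to 4 with an array left out, with 1 without p130 KO array 3. The replicate numbers were not taken to pair the arrays (3 of 24 correlated best with their own number), and the replicate block moved no other count of calls by over 1.5 times. Among the values of named genes called under the main settings, 1 changed sign. It was Phlpp2, at -0.057 for Rb1 loss without p107 as the mean of all probe sets. The cause of these shifts was not tested. Of the other values for single genes, 110 lost their call. A further 41, not called, changed sign with a shift of at least 1 SE. The remaining 5727 kept their sign, or changed it uncalled with a shift under 1 SE. That count does not measure size, since a value that kept its sign is in it however far it shrank or grew. The 3 p130 KO arrays and the single p107 KO array limit the precision most.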
